A study of Mus musculus with 6 samples.

Results

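The genes described here were 36 genes of glycolysis and of the response to low oxygen, taken by symbol from the 55494 rows of a gene count table. They comprised 20 glycolytic enzymes, 3 transporters of glucose and lactate, and 13 further genes of the hypoxia response. All 36 had enough counts to be tested, among 16097 genes tested in all. Muscle stem cells, the cells that repair skeletal muscle, had been isolated from wild-type mice and cultured for 2 days without (control) or with 11,12-EET, a lipid mediator derived from arachidonic acid by cytochrome P450. There were 3 control and 3 EET libraries of poly(A) RNA with totals of 30371291 to 37243882 counts, and no source used here gives the EET dose, the control medium or the strain, sex and age of the mice. Whether replicate libraries stem from different animals or cultures is not in the labels, and the p-values then cover only a spread between libraries that may be technical.

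Glycolysis turns glucose into pyruvate through hexokinase, phosphofructokinase, aldolase and the enzymes that follow it, and lactate dehydrogenase converts pyruvate to lactate, which leaves the cell through monocarboxylate transporters. Transcription of many of these genes is raised by hypoxia-inducible factors (HIF), pairs of an alpha subunit, such as the products of Hif1a and Epas1, and the partner encoded by Arnt. With oxygen present, the prolyl hydroxylases encoded by Egln1, Egln2 and Egln3 mark the alpha subunits, and the product of Vhl sends them for degradation. Muscle stem cells are known to take up more glycolysis when they leave quiescence in culture. The libraries measured mRNA and not the HIF proteins, which are regulated mainly after translation.

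HIF dimers bind a short core sequence, ACGTG or GCGTG. The 5 promoters shown all carry it, and their genes cover some but not all of the outcomes in the comparison. These promoters are RefSeq sequences upstream of annotated exons on GRCm38.p6, and the capitals mark ACGTG or GCGTG on either strand. Ldha lies at chr7:46845554-46845803 on the plus strand, Pgk1 at chrX:106186850-106187099 on the plus strand, Pfkp at chr13:6648778-6649021 on the minus strand, Egln1 at chr8:124949325-124949504 on the minus strand and Ddit4 at chr10:59951835-59952020 on the minus strand.
Ldha: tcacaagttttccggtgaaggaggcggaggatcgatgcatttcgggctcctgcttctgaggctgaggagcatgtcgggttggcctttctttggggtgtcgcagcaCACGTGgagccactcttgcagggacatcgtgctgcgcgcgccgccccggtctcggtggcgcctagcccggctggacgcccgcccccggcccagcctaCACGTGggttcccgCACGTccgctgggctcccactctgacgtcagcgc
Pgk1: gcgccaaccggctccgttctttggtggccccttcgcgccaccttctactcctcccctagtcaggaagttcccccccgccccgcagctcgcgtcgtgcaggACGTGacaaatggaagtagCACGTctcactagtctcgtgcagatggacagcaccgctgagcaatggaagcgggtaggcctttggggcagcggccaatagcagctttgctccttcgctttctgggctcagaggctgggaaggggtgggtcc
Pfkp: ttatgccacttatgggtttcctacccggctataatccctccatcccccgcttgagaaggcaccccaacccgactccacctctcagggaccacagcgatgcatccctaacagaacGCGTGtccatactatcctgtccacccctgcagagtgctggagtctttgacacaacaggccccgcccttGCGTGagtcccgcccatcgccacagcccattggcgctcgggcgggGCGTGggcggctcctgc
Egln1: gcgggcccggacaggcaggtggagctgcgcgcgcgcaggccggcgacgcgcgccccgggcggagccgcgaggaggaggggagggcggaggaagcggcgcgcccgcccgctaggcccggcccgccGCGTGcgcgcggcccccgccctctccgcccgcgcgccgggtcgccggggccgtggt
Ddit4: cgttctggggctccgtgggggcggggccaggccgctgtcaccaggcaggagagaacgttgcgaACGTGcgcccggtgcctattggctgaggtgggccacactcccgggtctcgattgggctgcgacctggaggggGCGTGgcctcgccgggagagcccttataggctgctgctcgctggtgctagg

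A promoter window, 250 bases before to 50 after an annotated start, was found for 34 of the 36 genes, all but Bnip3l and Ndrg1. At least 1 match stood in a window of 31 of these 34 genes (91.2%), compared with 65.9% of the tested genes that had a window. The 3 genes without a match were Gpi1, Tpi1 and Pgam2, all enzymes, whereas 11 of the 11 hypoxia response genes with a window had one. Counted per window, 40 of 49 member windows (81.6%) held a match, against 60.0% of the windows of tested genes and 43.8% of all 32851 windows. The member windows were also rich in CpG, with a median of 21 CpG per window against 19 in tested genes and 7 in all windows, and both motifs contain a CpG. A palindromic CACGTG, of which Ldha has 2 in the stretch shown, counts on both strands, and a match of letters does not show a bound site. Ldha, Pgk1, Pfkp, Egln1 and Ddit4 are among the 31 genes with a match, and a link between the motif and the change of an mRNA was not tested.

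Levels differed widely between the enzymes. Per kilobase of mRNA, in CPM, counts scaled to library size by the TMM method, Gapdh was the most abundant at 2711 ± 222 CPM per kb in controls (SD, n = 3). Pkm, the last enzyme before pyruvate, followed with 1455 ± 110 and Eno1 with 1350 ± 123 CPM per kb, a pair whose order lies within the spread of the libraries. Ldha stood at 900 ± 71.6 CPM per kb, Aldoa at 714 ± 61.2 and Pgk1 at 540 ± 39.3. Gpi1, Eno3 and Pgam1 lay between 139 and 189 CPM per kb, and Tpi1 at 245 ± 18.0. The hexokinases and phosphofructokinases were far lower, with Hk1 at 81.8 ± 1.71 CPM per kb, Pfkl at 34.2 ± 2.20 and Pfkp at 27.5 ± 0.859. Of the hypoxia response genes Hif1a had the highest level at 41.2 ± 0.699 CPM per kb, and Ankrd37 the lowest at 0.630 ± 0.167.

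In the counts as deposited, 10 of the 20 enzymes rose with EET, 4 fell and 6 passed no test, with a median log2 fold change of 0.18 against 0.0050 over all genes tested. A gene is said to have risen or fallen where edgeR's quasi-likelihood test gave it an adjusted p (Benjamini-Hochberg) under 0.05. The same rule called 24.6% of all tested genes higher and 23.3% lower. The genes that rose were Gpi1 and nearly the whole lower pathway (Aldoa, Tpi1, Gapdh, Pgk1, Pgam1, Eno1, Eno3, Ldha and Ldhb), and those that fell were Hk1, Hk2, Pfkp and the regulatory enzyme gene Pfkfb3. Of the 13 hypoxia response genes 3 rose (Egln1, Egln3, Bnip3), 4 fell (Hif1a, Pdk1, Ndrg1, Ddit4) and 6 passed no test, with a median of −0.052. None of the 3 transporter genes was called. The CPM ranges of the groups did not overlap for 13 enzymes and 9 hypoxia response genes, and for 57.7% of all genes tested.

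**Figure D1:**
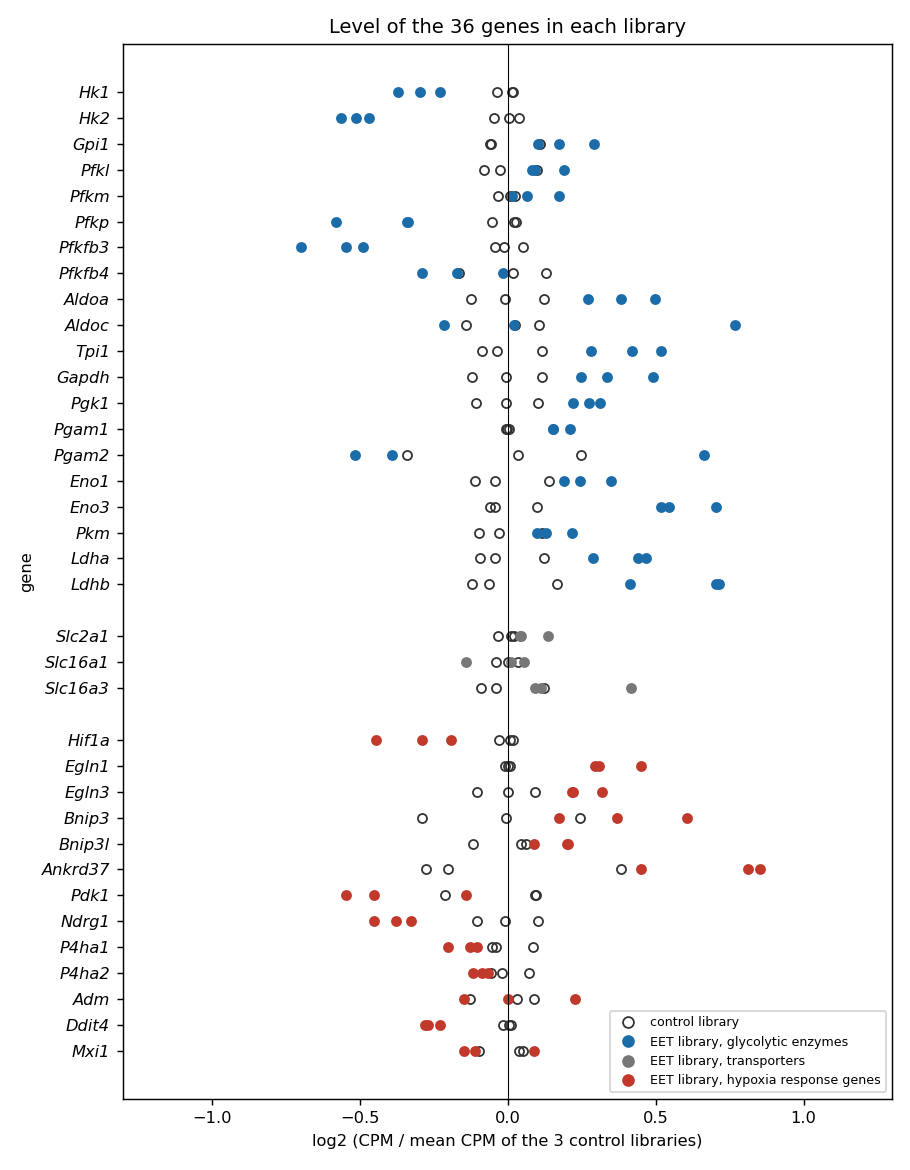
Level of each of the 36 genes in each library, as log2 of its CPM over the mean of the 3 control libraries (x axis), with 1 row per gene; open circles are control libraries and filled circles EET libraries, coloured by group. Most lower-pathway enzymes have their EET circles to the right of the controls, as Eno3 does, and Hk2 and Pfkfb3 have them to the left.

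Across the whole transcriptome the EET libraries held more of short mRNAs and less of long ones, and the 36 genes have to be read against this. The deviation of a library from the mean of all 6 changed by 0.12 to 0.24 (log2) per doubling of mRNA length in controls and by −0.27 to −0.11 in EET libraries, so length trend and treatment cannot be told apart by the design. Of tested protein-coding genes with an mRNA of 1000 to 2000 bp, 63.8% were called higher and 1.51% lower, with a median log2 fold change of 0.48. Of the 11 members of that length 9 rose, with a median over the 11 of 0.39. Only Ddit4 fell among these 11, at −0.26 ± 0.08 (SE). Of tested genes with an mRNA of 4000 to 6000 bp, 6.09% were called higher and 49.1% lower, and of the 10 members of that length 0 rose and 6 fell (Hk1, Hk2, Pfkp, Pfkfb3, Hif1a and Pdk1).

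Between these lengths the background shares were more even. At 2000 to 3000 bp 31.3% of genes were called higher and 5.24% lower, and of 8 members Gpi1, Eno1 and Egln3 rose and Ndrg1 fell. At 3000 to 4000 bp 12.1% were higher and 20.1% lower, and of 5 members Egln1 rose and 0 fell. Below 1000 bp 73.4% were higher and 0.633% lower, and neither Pgam2 nor Ankrd37, both of about 1 CPM or less in controls, was called.

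**Figure D2:**
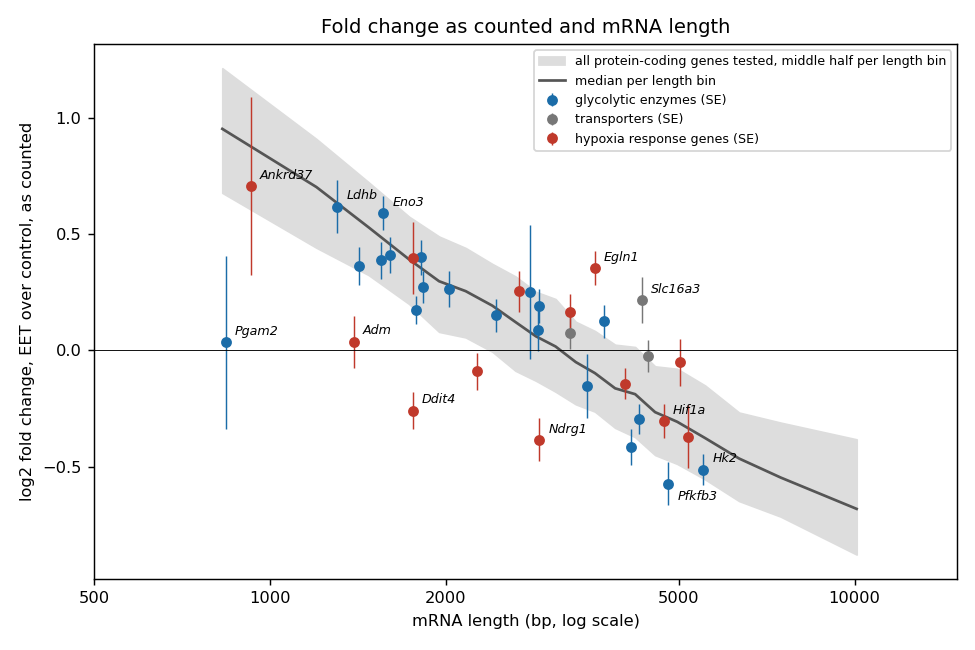
Log2 fold change of EET over control in the counts as deposited (y axis, bars are standard errors) against mRNA length in bp (x axis, log scale) for the 36 genes; the grey line and band give the median and middle range of all tested protein-coding genes in bins of length. Most members lie near the band, which falls with length, while Ddit4, Adm and Ndrg1 are among those below it and Egln1 is among those above it.

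Each gene was therefore also tested with the smooth trend of length and GC content removed from every library, so that its change is relative to genes of like length and GC content. In this fit 16.3% of all tested genes were higher and 15.2% lower. Of the 20 enzymes 2 were then higher (Gpi1, Pfkl) and 5 lower (Pfkp, Pfkfb3, Aldoa, Gapdh, Pgam1), with a median log2 fold change of −0.068 against −0.0068 over all genes. Of the 13 hypoxia response genes 2 were higher (Egln1, Mxi1) and 4 lower (Ndrg1, P4ha2, Adm, Ddit4), with a median of −0.037. Of the transporters Slc16a1 and Slc16a3 were higher. The same call was made in both fits for 6 of the 36 genes, Gpi1 and Egln1 higher and Pfkp, Pfkfb3, Ndrg1 and Ddit4 lower, which is 16.7%, compared with 22.4% of all genes tested. Another 3 members (8.33%) were higher as counted and lower after the removal, Aldoa, Gapdh and Pgam1, as were 0.919% of all genes. Of the 16097 genes tested, 13811 had an mRNA length, as all 36 members did. The remaining genes had no trend removed, so both fits treated them nearly alike, and the shares over all genes include them.

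**Figure D3:**
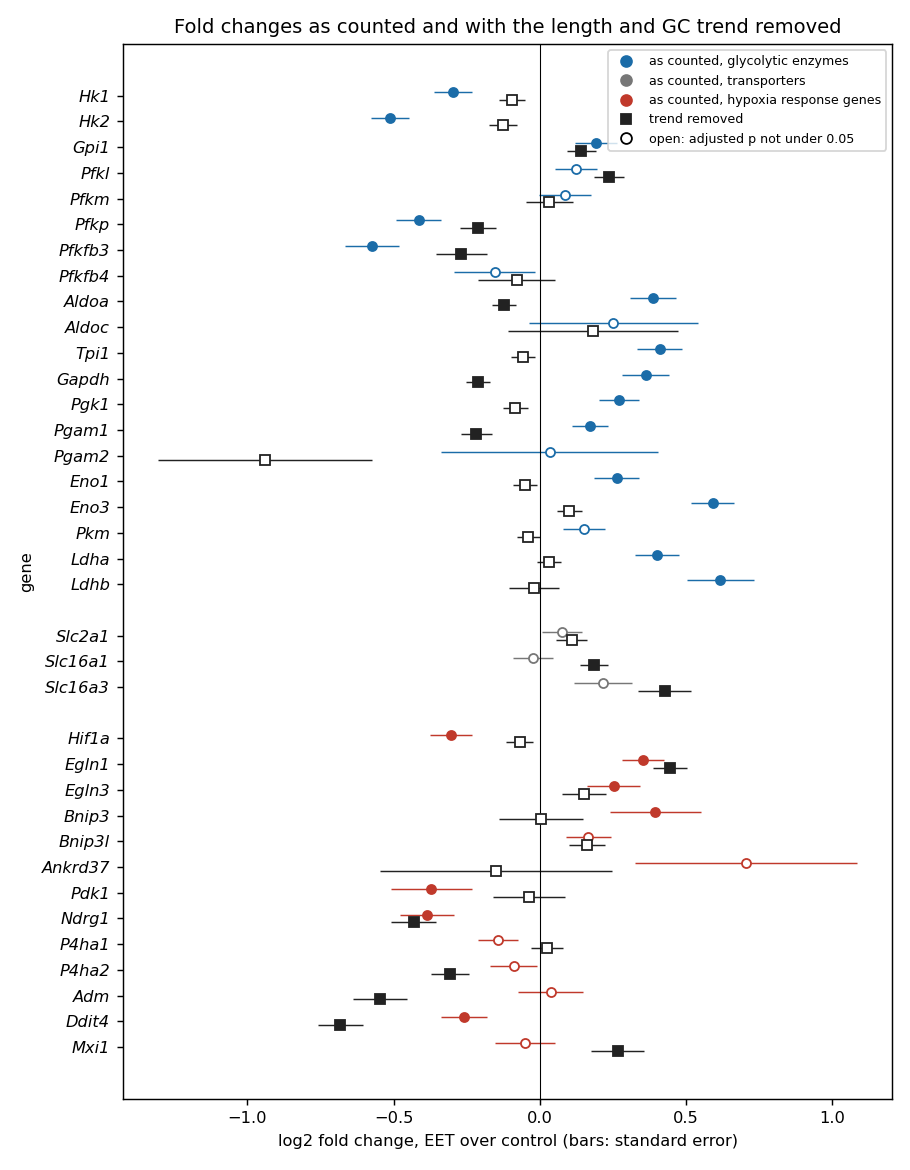
Log2 fold change of EET over control for the 36 genes in the counts as deposited (circles) and after removal of the length and GC trend (squares); bars are standard errors, filled symbols have an adjusted p under 0.05 and open ones do not. The lower-pathway enzymes move from the right towards or past 0, while Egln1, Ndrg1 and Ddit4 keep their sides.

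The hexokinases, which trap glucose in the cell as glucose 6-phosphate, both fell as counted. Hk2, the inducible muscle isoform, read 123, 131 and 128 CPM in controls and 89.4, 86.2 and 92.2 CPM with EET, a log2 fold change of −0.51 ± 0.07 (adjusted p = 2.09e-05). Hk1, the widely expressed isoform, read 354, 354 and 341 CPM in controls and 285, 271 and 298 CPM with EET (−0.30 ± 0.06, adjusted p = 0.00139). For both genes every EET library lay below every control. Their mRNAs are 5513 and 4278 bp long, and with the trend removed the changes were −0.13 ± 0.05 for Hk2 (adjusted p = 0.0532) and −0.095 ± 0.04 for Hk1 (adjusted p = 0.103). Per kilobase, Hk1 supplied 78.0 ± 0.669% of the hexokinase mRNA of these 2 genes in controls and 80.4 ± 0.234% with EET, without overlap between the groups. With the trend taken out of both genes the Hk1 shares overlapped, at 79.0 ± 0.152% and 79.4 ± 0.615%.

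Gpi1, which isomerises glucose 6-phosphate to fructose 6-phosphate, was slightly higher in both fits. It read 587, 523 and 522 CPM in controls and 666, 614 and 584 CPM with EET (0.19 ± 0.07, adjusted p = 0.0418, and 0.14 ± 0.05 with the trend removed, adjusted p = 0.0317). The lowest EET library lay just below the highest control. The call as counted was lost without control 2, control 3, EET 1 or EET 2, with adjusted p of 0.093 to 0.183, and the call with the trend removed was lost without the same libraries, with adjusted p of 0.0993 to 0.199.

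Phosphofructokinase makes the committed step of glycolysis, and its 3 genes did not move together. Pfkp, the platelet-type isoform, read 116, 116 and 110 CPM in controls and 89.99, 76.2 and 90.2 CPM with EET (−0.41 ± 0.08, adjusted p = 0.000435). All 3 EET libraries lay below the controls, and the gene was still lower with the trend removed (−0.21 ± 0.06, adjusted p = 0.0137). That second call was lost without control 1, control 2 or EET 2, with adjusted p of 0.0507 to 0.103. Pfkl, the liver-type isoform, read 137, 121 and 125 CPM in controls and 146, 136 and 135 CPM with EET. Its groups overlapped by 1 control library and it was not called as counted (0.12 ± 0.07, adjusted p = 0.167). With the trend removed it read 130, 117 and 121 against 151, 144 and 137 CPM, and it was called higher (0.24 ± 0.05, adjusted p = 0.00175). Pfkm, the muscle isoform, read 21.8 to 22.7 CPM in controls and 22.6 to 25.2 CPM with EET and was called in neither fit (0.086 ± 0.09, adjusted p = 0.467).

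The make-up of phosphofructokinase mRNA therefore differed between the groups. Per kilobase, Pfkl made up 50.5, 47.6 and 49.6% of it in controls and 56.7, 57.3 and 55.1% with EET. Pfkp went from 39.6 ± 1.24% to 31.1 ± 2.09% and Pfkm from 11.2 ± 0.295% to 12.5 ± 1.10%. None of the 3 shares overlapped between the groups. Without the trend the Pfkl share was 49.5 ± 1.14% in controls and 56.2 ± 1.20% with EET and the Pfkp share 38.6 ± 0.904% and 32.1 ± 2.13%, still without overlap, whereas the Pfkm shares overlapped. The exons of Pfkp overlap those of Pitrm1, a gene on the opposite strand with 38821 counts against 20636 for Pfkp, over 748 bp. No source used here states the strand setting of the counting, so how reads of that overlap were assigned is not known, and Pitrm1 was itself lower as counted (−0.27).

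**Figure D4:**
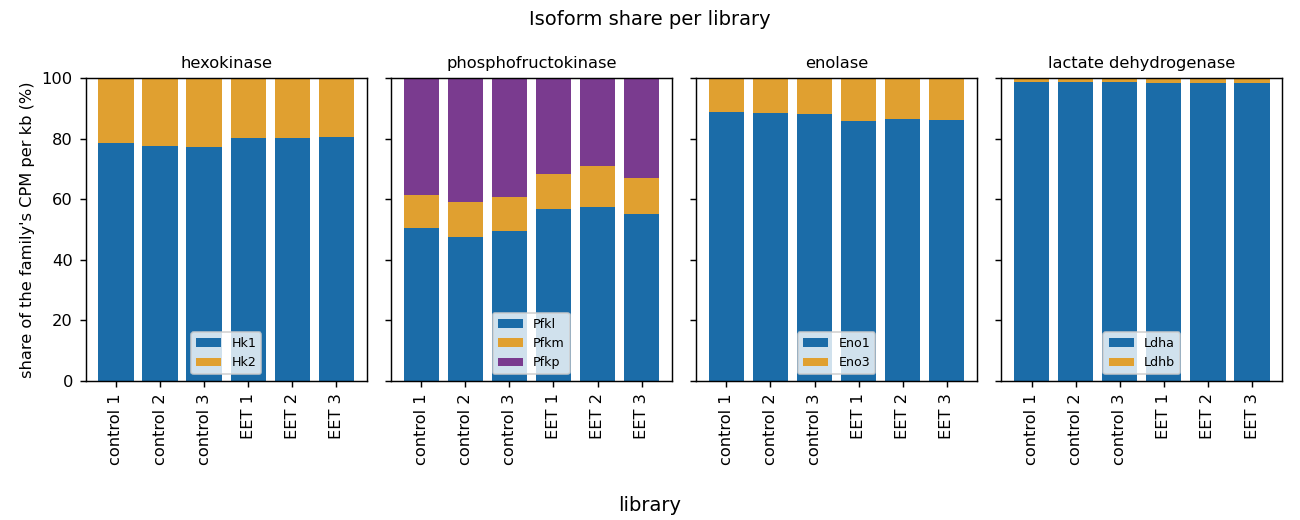
Share of each gene family's CPM per kb contributed by each gene (y axis, percent) in each of the 6 libraries (x axis), stacked to 100% for hexokinase, phosphofructokinase, enolase and lactate dehydrogenase. Pfkl takes 47.6 to 50.5% of phosphofructokinase in controls and 55.1 to 57.3% with EET.

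Pfkfb3 and Pfkfb4 encode bifunctional enzymes that set the level of fructose 2,6-bisphosphate, the main activator of phosphofructokinase. Pfkfb3 read 28.3, 30.2 and 28.9 CPM in controls and 19.96, 20.8 and 18.0 CPM with EET (−0.57 ± 0.09, adjusted p = 0.000123). Its EET libraries all lay below the controls, and it was lower with the trend removed too (−0.27 ± 0.09, adjusted p = 0.0234), a call lost without control 2 (adjusted p = 0.086) or EET 3 (adjusted p = 0.12). Pfkfb4 read 7.71 to 9.46 CPM in controls and 7.07 to 8.54 CPM with EET and was not called (−0.15 ± 0.14, adjusted p = 0.393).

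From aldolase to enolase the abundant enzymes were higher in every EET library than in any control, as counted. Eno3, the muscle enolase, moved furthest, from 288, 261 and 258 CPM to 437, 392.1 and 385 CPM (0.59 ± 0.07, adjusted p = 1.39e-05). Tpi1, triose phosphate isomerase, went from 426, 383 and 370 CPM to 563, 526 and 478 CPM (0.41 ± 0.08, adjusted p = 0.000447). The groups lay well apart for both genes, whose mRNAs of 1564 and 1607 bp fall in the class where most genes rose. Relative to genes of like length Eno3 stood at 0.10 ± 0.04 (adjusted p = 0.0834) and Tpi1 at −0.057 ± 0.04 (adjusted p = 0.324), so neither was called.

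Aldoa, which splits fructose 1,6-bisphosphate, read 1204, 1100 and 1014 CPM in controls and 1561, 1442 and 1334 CPM with EET (0.39 ± 0.08, adjusted p = 0.000873). Gapdh, the glyceraldehyde 3-phosphate dehydrogenase often used as a reference gene, read 4170, 3838 and 3541 CPM in controls and 5410, 4864 and 4567 CPM with EET (0.36 ± 0.08, adjusted p = 0.00166). Both turned with the trend removed, where Aldoa was lower at −0.12 ± 0.04 (adjusted p = 0.0317) and Gapdh lower at −0.21 ± 0.04 (adjusted p = 0.000523). The Aldoa call with the trend removed was lost without control 1, control 2, EET 2 or EET 3, with adjusted p of 0.0623 to 0.183. A total of 175 rows of the table were near-identical copies of Gapdh (at least 90% identity over 300 bp), and their counts came to 1.17% of those of Gapdh in controls and 0.899% with EET.

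Pgk1, phosphoglycerate kinase, read 1059, 983 and 916 CPM in controls and 1193, 1225 and 1150 CPM with EET (0.27 ± 0.07, adjusted p = 0.00472), and −0.084 ± 0.04 with the trend removed (adjusted p = 0.142). Pgam1, the phosphoglycerate mutase of most tissues, read 247, 246 and 246 CPM in controls and 274, 274 and 285 CPM with EET (0.17 ± 0.06, adjusted p = 0.0295), and was lower with the trend removed (−0.22 ± 0.05, adjusted p = 0.00395). Eno1, the common enolase, read 3015, 2658 and 2537 CPM in controls and 3484, 3245 and 3121 CPM with EET (0.26 ± 0.08, adjusted p = 0.0104), and −0.051 ± 0.04 with the trend removed (adjusted p = 0.387). The groups did not overlap as counted for any of these 3 genes. The call of Pgam1 as counted was lost without control 2, control 3, EET 1 or EET 2 (adjusted p 0.0507 to 0.11), and that of Eno1 without control 2, control 3 or EET 1 (adjusted p 0.054 to 0.068).

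Pkm, which carries the exons of both pyruvate kinase M isoforms, read 3836, 3467 and 3313 CPM in controls and 4114, 3869 and 3792 CPM with EET. The groups overlapped by 1 control library, and Pkm was not called (0.15 ± 0.07, adjusted p = 0.102), though it was without control 1 (adjusted p = 0.0179), and it stood at −0.039 with the trend removed (adjusted p = 0.502). Counts per gene cannot tell its M1 and M2 isoforms apart. Aldoc, the brain aldolase, and Pgam2, the muscle mutase, lay under 3 CPM and were not called (adjusted p = 0.511 and 0.952). Pgam2 read 0.867, 1.13 and 1.304 CPM in controls and 1.74, 0.768 and 0.839 CPM with EET, EET 1 being the highest (0.033 ± 0.37), and with the trend removed it stood at −0.94 ± 0.37 (adjusted p = 0.057), where it was called lower without control 1 (adjusted p = 0.0352) or EET 1 (adjusted p = 0.0239). Eno1 made up 88.7 ± 0.313% of enolase mRNA per kilobase in controls and 86.2 ± 0.224% with EET, with Eno3 as the rest and no overlap between the groups, and without the trend 88.0 ± 0.434% and 86.9 ± 0.303%, also without overlap.

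Lactate dehydrogenase converts pyruvate and lactate into each other, and both of its genes rose as counted. Ldha, the M subunit, read 1781, 1588 and 1533 CPM in controls and 2259, 2216 and 1996 CPM with EET (0.40 ± 0.08, adjusted p = 0.000462). Ldhb, the H subunit, read 16.6, 13.6 and 14.1 CPM in controls and 24.2, 24.1 and 19.7 CPM with EET (0.62 ± 0.11, adjusted p = 0.000408). Neither had overlapping groups, and neither was called with the trend removed (0.031 ± 0.04, adjusted p = 0.614 for Ldha and −0.020 ± 0.09, adjusted p = 0.891 for Ldhb). Ldha made up 98.8% of the mRNA of both per kilobase in controls and 98.6% with EET, and the groups overlapped without the trend.

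Together the 20 enzymes took 1.78, 1.60 and 1.56% of all counts in the control libraries and 1.99, 1.88 and 1.82% in the EET libraries. The groups did not overlap, and the difference of 0.249 percentage points had an exact two-sided permutation p of 0.1, the smallest that 3 against 3 libraries can give. The direction turned when the length and GC trend was taken out, with 1.81 ± 0.0607% in controls and 1.71 ± 0.0246% with EET (SD, n = 3), again without overlap (exact permutation p = 0.1). The 13 hypoxia response genes took 0.0663 ± 0.00107% of counts in controls and 0.0598 ± 0.00225% with EET, without overlap (exact permutation p = 0.1), but the groups overlapped without the trend, at 0.0633 ± 0.00123% and 0.0624 ± 0.000483% (exact permutation p = 0.4). The transporters' shares overlapped as counted (exact permutation p = 0.5) and were higher with EET without the trend, at 0.0355 ± 0.00172% and 0.0407 ± 0.000677% (exact permutation p = 0.1). Shares as counted are of library totals, while those without the trend are sums of TMM-scaled CPM, so the scaling differs too. The TMM factors were 1.01 to 1.04 in controls and 0.965 to 0.992 with EET, and the part of the scaling in these differences was not tested.

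The transporter genes changed little as counted. Slc16a3, the lactate exporter MCT4, read 46.6, 40.2 and 41.7 CPM in controls and 57.3, 45.7 and 46.3 CPM with EET (0.22 ± 0.10, adjusted p = 0.0861). EET 1 was the highest and control 1 lay above the other 2 EET libraries, and without control 1 or without EET 3 the gene was called. It was higher beyond the trend, at 43.4, 37.4 and 38.3 against 61.9, 50.2 and 48.1 CPM (0.43 ± 0.09, adjusted p = 0.00247). Slc16a1, the transporter MCT1, read 260, 246 and 254 CPM in controls and 230, 255 and 263 CPM with EET, which overlap (−0.023 ± 0.07, adjusted p = 0.812). Its mRNA of 4426 bp is in the length class where 49.1% of genes were lower, and relative to genes of like length it was higher (0.18 ± 0.05, adjusted p = 0.00641), a call lost without control 2 (adjusted p = 0.0668). Slc2a1, the glucose transporter GLUT1, read 80.2 to 83.2 CPM in controls and 84.4 to 90.1 CPM with EET and was called in neither fit (0.075 ± 0.07, adjusted p = 0.397).

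Among the genes of oxygen sensing, Egln1 rose in both fits. Egln1, whose product PHD2 is the main oxygen sensor of the HIF pathway, lies on chromosome 8 (124908587 to 124949324, minus strand, GRCm38). It read 61.0, 60.8 and 60.4 CPM in controls and 83.0, 74.5 and 75.2 CPM with EET (0.35 ± 0.07, adjusted p = 0.000921), and 0.45 ± 0.06 with the trend removed (adjusted p = 9.03e-06). The controls lay within 1 CPM of each other and all EET libraries lay well above them, and both calls held without any 1 library. Egln3, which encodes PHD3, read 25.9, 24.3 and 22.6 CPM in controls and 30.2, 28.2 and 28.3 CPM with EET (0.25 ± 0.09, adjusted p = 0.0302, and 0.15 ± 0.08 with the trend removed, adjusted p = 0.138). Its groups did not overlap, but the call was lost without control 2, control 3, EET 1 or EET 2 (adjusted p 0.0571 to 0.142).

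Hif1a itself read 191, 197 and 196 CPM in controls and 143, 159 and 170 CPM with EET (−0.30 ± 0.07, adjusted p = 0.00279). All 3 EET libraries lay below the controls, and the call held without any 1 library. With an mRNA of 4724 bp, its change relative to genes of like length was −0.068 ± 0.05 and was not called (adjusted p = 0.28).

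The partners of these genes outside the 36 were read from a further list of 47 hypoxia genes. Epas1, which encodes HIF-2 alpha, read 31.7, 36.4 and 39.1 CPM in controls and 22.9, 23.1 and 22.5 CPM with EET (−0.65 ± 0.09, adjusted p = 5.71e-05, and −0.26 ± 0.08 with the trend removed, adjusted p = 0.0171). Arnt read 71.0, 75.6 and 74.4 CPM in controls and 51.0, 49.8 and 55.5 CPM with EET (−0.50 ± 0.08, adjusted p = 7.13e-05, and −0.27 ± 0.06, adjusted p = 0.000974). Both were lower in every EET library and in both fits. Vhl read 19.2, 16.8 and 17.2 CPM in controls and 25.3, 21.9 and 21.6 CPM with EET and was higher in both fits (0.37 ± 0.10, adjusted p = 0.00692, and 0.31 ± 0.09, adjusted p = 0.0115). Hif1an, which encodes the asparaginyl hydroxylase FIH, fell as counted (−0.37 ± 0.08, adjusted p = 0.00155) but not with the trend removed (0.095, adjusted p = 0.232).

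**Figure D5:**
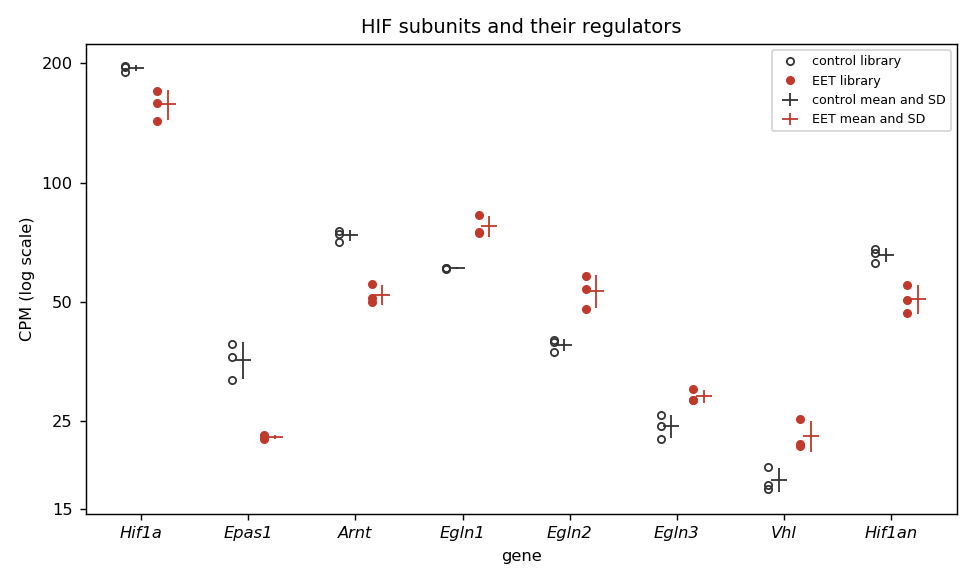
CPM (y axis, log scale) of the HIF subunit genes Hif1a, Epas1 and Arnt and of their regulators Egln1, Egln2, Egln3, Vhl and Hif1an in each library; open circles are controls, filled circles EET, and dashes with bars the mean and SD of 3 libraries. The 3 subunit genes and Hif1an lie lower with EET and Egln1, Egln2, Egln3 and Vhl higher in the counts as deposited, and of these Epas1, Arnt, Egln1 and Vhl were called in both fits.

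Of the other hypoxia response genes, Ddit4 and Ndrg1 fell in both fits. Ddit4, whose product REDD1 restrains mTORC1 under stress, lies on chromosome 10 (59949669 to 59951834, minus strand) and read 35.3, 34.9 and 35.5 CPM in controls and 29.0, 29.3 and 30.1 CPM with EET. The groups were narrow and apart, at −0.26 ± 0.08 as counted (adjusted p = 0.0146). Its mRNA of 1755 bp is of a length at which most genes rose, and with the trend removed it stood at −0.68 ± 0.08 (adjusted p = 2.16e-06). The call as counted was lost without control 3 (adjusted p = 0.0533), and the call with the trend removed held without any 1 library. Ndrg1, a stress-responsive gene on chromosome 15 (66929318 to 66969640, minus strand), read 30.8, 28.4 and 26.7 CPM in controls and 22.0, 20.9 and 22.8 CPM with EET. Its groups did not overlap, and it stood at −0.39 ± 0.09 as counted (adjusted p = 0.00279) and −0.43 ± 0.08 with the trend removed (adjusted p = 0.00027).

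Several genes of this group were called only relative to genes of like length and GC content. Adm, which encodes the vasodilator peptide adrenomedullin, read 19.1, 17.1 and 19.9 CPM in controls and 21.9, 18.7 and 16.9 CPM with EET, with overlap (0.037 ± 0.11, adjusted p = 0.816). With the trend removed it read 21.8, 21.4 and 25.3 against 16.9, 14.9 and 14.9 CPM (−0.55 ± 0.09, adjusted p = 0.000172). P4ha2, a collagen prolyl hydroxylase subunit, read 41.1, 37.7 and 38.6 CPM in controls and 37.4, 36.1 and 36.9 CPM with EET (−0.090 ± 0.08, adjusted p = 0.387), and was lower with the trend removed (−0.31 ± 0.07, adjusted p = 0.00123). Both calls with the trend removed held without any 1 library. Mxi1, an antagonist of MYC, read 19.0, 17.3 and 19.1 CPM in controls and 16.7, 17.1 and 19.6 CPM with EET (−0.052 ± 0.10, adjusted p = 0.712). It was higher with the trend removed (0.27 ± 0.09, adjusted p = 0.0299), a call lost without each library but control 1 (adjusted p 0.056 to 0.166).

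The mitophagy receptor genes Bnip3 and Bnip3l gave weak changes. Bnip3 read 8.41, 6.91 and 10.02 CPM in controls and 9.52, 12.9 and 10.9 CPM with EET (0.40 ± 0.16, adjusted p = 0.0482), and 0.0036 with the trend removed (adjusted p = 0.989). Its groups overlapped, and the call was lost without control 1, control 2, EET 2 or EET 3 (adjusted p 0.0511 to 0.228). Bnip3l read 64.3, 71.8 and 72.7 CPM in controls and 80.3, 74.0 and 80.0 CPM with EET and did not pass the test (0.17 ± 0.08, adjusted p = 0.0846, and 0.16 ± 0.06 with the trend removed, adjusted p = 0.0502), and without EET 2 it was called higher with the trend removed (adjusted p = 0.029).

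Pdk1, the kinase that keeps pyruvate out of the mitochondrial citrate cycle, read 13.5, 13.6 and 11.0 CPM in controls and 8.70, 9.28 and 11.5 CPM with EET (−0.37 ± 0.14, adjusted p = 0.0367). Its groups overlapped through EET 3, the call was lost without control 1, control 2, EET 1 or EET 2 (adjusted p 0.0999 to 0.138), and it stood at −0.037 with the trend removed (adjusted p = 0.853). P4ha1, the other collagen hydroxylase subunit gene, read 132 to 145 CPM in controls and 119 to 127 CPM with EET and was not called (−0.14 ± 0.07, adjusted p = 0.0987, and 0.025 with the trend removed, adjusted p = 0.763). Ankrd37, an ankyrin repeat gene, read 0.482 to 0.762 CPM in controls and 0.798 to 1.06 CPM with EET, and was not called (0.71 ± 0.38, adjusted p = 0.145, and −0.15 ± 0.40 with the trend removed, adjusted p = 0.811). Its exons overlap those of Ufsp2 on the opposite strand over 57 bp, and Ufsp2 had 8444 counts against 157 for Ankrd37 and was higher as counted (0.37). How reads of that overlap were assigned is not known.

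Of the further 47 hypoxia genes 46 were tested, and as counted 9 rose and 20 fell, with a median log2 fold change of −0.21. The shares over all genes tested were 24.6% and 23.3%. The 46 genes had a median mRNA length of 3467.5 bp. At 3000 to 4000 bp 12.1% of tested protein-coding genes were higher as counted and 20.1% lower. After removal of the trend 3 of the 46 were higher and 16 lower (median −0.14), against 16.3% and 15.2% of all genes. The call was the same in both fits for 14 of the 46 (30.4%), 3 higher (6.52%) and 11 lower (23.9%). Of all genes tested 22.4% had the same call in both, 11.6% higher and 10.8% lower. The 2 that rose with the smallest p were Fam162a, a mitochondrial HIF target, from 27.6 ± 1.60 to 66.8 ± 6.79 CPM (SD, n = 3; log2 fold change 1.28 ± 0.09, adjusted p = 6.36e-07), and Higd1a, from 11.0 ± 0.401 to 25.7 ± 3.48 CPM (1.23 ± 0.11, adjusted p = 1.97e-06). Beyond the trend Fam162a, whose mRNA is 718 bp long, kept 0.30 (adjusted p = 0.0013) and Higd1a, of 2232 bp, kept 1.00 ± 0.10 (adjusted p = 7.43e-07). The 2 that fell with the smallest p were Epas1 and Lox, a collagen cross-linking enzyme, from 134 ± 9.21 to 84.1 ± 4.21 CPM (−0.67 ± 0.07, adjusted p = 5.64e-06, and −0.41 with the trend removed, adjusted p = 5.31e-06). Of the most used HIF target genes, Vegfa fell slightly as counted, from 220, 222 and 225 to 201, 198 and 199 CPM (−0.16 ± 0.06, adjusted p = 0.0424, and −0.082 with the trend removed, adjusted p = 0.166). Car9 was below 1 CPM in both groups (0.398 ± 0.291 and 0.436 ± 0.262 CPM, adjusted p = 0.877).

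Of 42 further genes of glucose metabolism 36 were tested, and as counted 9 rose and 7 fell, with a median log2 fold change of 0.0095. Over all genes tested 24.6% rose and 23.3% fell. After removal of the trend 4 were higher and 8 lower (median −0.083), compared with 16.3% and 15.2% of all genes. The call was the same in both fits for 5 of these genes (13.9%), against 22.4% of all genes, which include those without trend removal. Mpc2, a subunit of the mitochondrial pyruvate carrier, rose from 10.8 ± 1.60 to 23.9 ± 4.04 CPM (1.15 ± 0.14, adjusted p = 1.31e-05), and Bpgm, which makes 2,3-bisphosphoglycerate, from 12.0 ± 0.550 to 19.9 ± 1.34 CPM (0.72 ± 0.10, adjusted p = 4.29e-05). Both stayed higher with the trend removed, at 0.33 (adjusted p = 0.0153) and 0.51 (adjusted p = 0.000496). Gpd2, the mitochondrial glycerol phosphate dehydrogenase, fell from 142 ± 16.5 to 101 ± 10.5 CPM (−0.49 ± 0.09, adjusted p = 0.000571), and Slc2a3, the glucose transporter GLUT3, from 15.1 ± 1.12 to 11.5 ± 0.633 CPM (−0.39 ± 0.11, adjusted p = 0.00877). Neither was called with the trend removed (adjusted p = 0.335 and 0.114).

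Markers of the labelled cell type were abundant, with 8 genes of muscle stem cells and myoblasts summing to 3389 to 3691 CPM in controls and 3895 to 3980 CPM with EET. Of the 8, Myf5, Myod1, Des and Sdc4 rose as counted and Pax7, the defining stem cell marker, fell from 114 ± 4.71 to 83.5 ± 1.64 CPM (−0.45 ± 0.07, adjusted p = 6.34e-05). Over all genes tested 24.6% rose and 23.3% fell. Cdh15, Itga7 and Vcam1 were not called, and Itga7 and Vcam1 read below the controls in every EET library. With the trend removed Des was higher, Myod1 lower and Pax7 not called (−0.049, adjusted p = 0.522), where 16.3% of all genes were higher and 15.2% lower. Markers of other cells of muscle were present too. The 5 endothelial markers summed to 243 to 260 CPM in controls and 128 to 151 CPM with EET. In both fits 5 of 5 fell, compared with 10.8% of all genes tested, alongside the lower Epas1 and, with the trend removed, Adm. The endothelial markers had a median mRNA length of 4654 bp. At 4000 to 6000 bp 49.1% of tested genes were lower as counted. The sums for 4 pericyte markers were 70.8 to 83.8 and 45.2 to 48.2 CPM, for 5 fibro-adipogenic markers 265 to 272 and 225 to 238 CPM, and for 5 macrophage and leukocyte markers 90.8 to 98.0 and 54.8 to 88.5 CPM. Members of these lists differed, and not in the same way in both fits. As counted, of the fibro-adipogenic markers Pdgfra and Col15a1 fell and Ly6a, Dpt and Dcn were not called. With the trend removed Col15a1 (−1.06), Ly6a (−0.52) and Dcn (−0.39) were lower, and Pdgfra and Dpt were not called. As counted 2 of 5 macrophage and 3 of 4 pericyte markers fell, against 23.3% of all genes tested. In the fit without the trend 3 of 5 and 2 of 4 were lower, against 15.2%. The pericyte markers had a median mRNA length of 7024 bp. Tested genes in the bin around 7475 bp had a median log2 fold change of −0.55 as counted. The sums of CPM above are as counted too, so length enters them. The 4 myotube markers summed to 31.6 to 41.8 CPM in controls and 51.4 to 61.2 CPM with EET. All 4 rose as counted, against 24.6% of all genes tested. With the trend removed Ckm, Myh3 and Mylpf were higher, against 16.3% of all genes. Acta1, the most abundant of the 4, was then not called (−0.070, adjusted p = 0.556). Among the muscle isoforms of the enzymes, Eno3 was higher and Hk2 lower as counted only, and Pfkm and Pgam2 were called in neither fit. The sums for red blood cell markers overlapped between the groups, and no marker of these lists was at 0 in all libraries. In bulk RNA, fewer cells of a type and less RNA per cell cannot be told apart, and the part of other cell types in the results above was not tested.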

How the data were processed

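Poly(A) RNA of 6 libraries was sequenced as paired reads of 150 bases after dUTP marking of the second strand, per the labels' protocols. The authors deposited whole-number counts per gene symbol, not normalized. Per the submitters' processing notes, FastQC, cutadapt and DESeq2 were used with the build GRCm38. No source used here gives the aligner, the counter and its strand setting, or the release of the gene annotation. Library totals were 30371291 to 37243882 counts, and no pair of libraries agreed within sampling noise (their chi-square per gene was at least 5.92). Of counts from 11 to 50, 61.3 to 62.1% were even in controls and 65.0 to 65.6% with EET, so a fit on counts divided by 2 was among the alternatives.

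Groups came from the sample titles. Counts were fitted in R 4.3.3 with the quasi-likelihood test of edgeR 4.0.16 (TMM scaling after filterByExpr, robust glmQLFit) on all genes, with Benjamini-Hochberg adjustment over the 16097 tested. Standard errors are the log2 fold change divided by the square root of the quasi-likelihood F. The longest protein-coding transcript in GENCODE M21 (GRCm38, 53292 rows matched by symbol) gave each gene's mRNA length. The trend was fitted per library by robust loess with a span of 0.3, taking its deviation on log2 length and GC percent, entered as an offset, and genes without such a length had no offset. The fits were run on simulated counts, where any trend added was the one estimated from these libraries by the same method. Such a check cannot show whether removing the trend is right for the real libraries. Copies were found with blastn 2.17.0 and shares compared by exact permutation in scipy 1.17.1. Promoters come from RefSeq (GRCm38.p6), and ACGTG and GCGTG were searched on both strands.

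The 36 members, the further lists and the tests were chosen with earlier results of these data known. All members are described. From each further list the 2 higher and 2 lower genes of smallest p are named, and Epas1, Arnt, Vhl, Hif1an, Vegfa and Car9 by name. Egln2 was added to a figure from that list after its values were seen. Alternatives were scaling by RLE or by library totals, fits without a filter or with over 5 CPM required in 3 libraries, DESeq2 1.42.0, limma-voom (limma 3.58.1), glmQLFit without robust estimation, a replicate block, leaving out each library, and leaving out control 1 with EET 3. Shares with the trend removed were added after the data were seen, as sums of CPM with the trend removed. The result of 1 further marker list is not reported here.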

Additional observations from a re-analysis of the deposited data

How the results depend on the processing

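Removing the length and GC trend changed most. It left 2 enzymes higher, with a median of −0.068, and over all genes 2622 higher and 2448 lower. It turned the sign of Aldoa (−0.12), Tpi1 (−0.057), Gapdh (−0.21), Pgk1 (−0.084), Pgam1 (−0.22), Eno1 (−0.051), Ldhb (−0.020), Slc16a1 (0.18), Adm (−0.55) and Mxi1 (0.27), and of 4 members called in neither fit, Pkm (−0.039), Pgam2 (−0.94), Ankrd37 (−0.15) and P4ha1 (0.025). Shares with the trend removed were added after seeing the data. Their difference was −0.0979 percentage points for the enzymes and −0.000889 for the hypoxia response genes. These are sums of TMM-scaled CPM set against shares of library totals, so the scaling changed along with the trend. Of the family shares described above, the removal turned the difference for Pfkm (−0.162) and Ldha (0.0469). The shares of Aldoa, Aldoc, Egln1 and Egln2 within their families, not described above, turned as well. With a trend on length alone 1 enzyme was higher. No other alternative turned a called member; of those not called as counted, Aldoc, Pgam2, Slc16a1 and Adm changed sign under at least 1. Scaling by library totals gave an enzyme median of 0.11, a hypoxia response median of −0.12 and 1 hypoxia response gene higher, and the enzyme median was 0.25 without control 1 and EET 3; the cause was not tested. By that scaling or by RLE scaling the calls of Gpi1 (adjusted p 0.179 and 0.0537) and Bnip3 were lost, and library totals or no filter ended those of Pgam1 (0.206 and 0.0815) and Egln3 (0.105 and 0.0505). Without control 1 and EET 3, Pfkl, Pkm and Slc16a3 gained calls. DESeq2, limma-voom and counts divided by 2 changed no member's call.

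Leaving out each library gave 1 to 2 hypoxia response genes higher. With the trend removed it gave 1 to 2 enzymes higher and 2 to 6 lower, 1 to 2 hypoxia response genes higher, a hypoxia response median of −0.085 to 0.034, and 1623 to 2486 genes lower. Replicate numbers did not pair the libraries (correlation of same-numbered deviations −0.050 to 0.0089). With a replicate block 4238 genes were higher and 4083 lower, and Pkm, Slc16a3, Bnip3l and P4ha1 gained calls. Depth limits Pgam2, Aldoc, Ankrd37 and Car9, all below 3 CPM.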
